A study of Mus musculus with 24 samples.

Results

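The 12 libraries of vehicle-treated mpkCCD cells, of 24 libraries in the series, were taken by their label to follow untreated cells over 3, 6, 12 and 24 h. The line mpkCCD comes from mouse cortical collecting duct (strain C57BL/6, genotype wild type, passage 10-11 per the labels). Cells had grown for 6 days on permeable filters in complete medium and then spent 24 h in minimum medium before vehicle was given to the basolateral side, with 3 libraries at each time. The other 12 libraries, given dDAVP, a vasopressin analog, at the same times, served only as a second set of libraries for the same hours. Genes were kept when their mean reached 5 CPM (the gene's counts scaled to the library's total) in at least 1 of the 4 vehicle groups, which left 13082 of 54432 genes. Of these, 11245 reached 5 CPM in all 4 groups and 1837 in 1 to 3 groups, 513 of them in a single group. Just inside the limit, 45 genes had a highest group mean within 0.05 CPM above it, and just outside it 41 genes lay within 0.05 CPM below. Vehicle library totals were 17.25 to 24.05 M counts, and the kept genes held 96.16% to 98.87% of them. The labels do not say whether the 3 libraries of a time came from separate cultures, so p-values cover only how these libraries scatter, in part perhaps by technique. Each time has its own libraries, so that the hours and anything else about a harvest cannot be told apart.

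The principal cell of the collecting duct reabsorbs water and sodium through aquaporins and epithelial sodium channels under vasopressin and aldosterone, and mpkCCD cells are widely used as its model. Cells kept without serum can alter sugar use, oxygen sensing, amino acid supply, growth signalling and clock gene expression. Whether this holds for the libraries here was not tested. When oxygen is low, HIF proteins escape hydroxylation and switch on glycolytic enzymes, glucose uptake and mitophagy genes. ATF4 is the transcription factor that raises amino acid synthesis and transport genes when amino acids run short or translation is stressed. Of 21 principal cell markers, 18 reached 5 CPM in a vehicle group, among them Avpr2 (the vasopressin receptor), Scnn1a and Scnn1g (sodium channel subunits), Cdh1 and Gata3. Their summed level was 6660 to 7580 CPM in the 12 libraries. Of 12 intercalated cell markers only Atp6v1b1 and Rhcg reached 5 CPM, and Foxi1 stayed under 1 CPM in each library. Umod of the thick limb, Kap and Slc5a2 of the proximal tubule and Lum of fibroblasts also stayed under 1 CPM in each library. In the same lists Slc12a3 and Trpm6 (distal tubule), Lrp2 (proximal tubule) and S100a4 (fibroblasts) reached 5 CPM, as did Pecam1, Flt1 and Egfl7 of 8 endothelial and Ptprc, Cd68 and Csf1r of 8 leukocyte markers.

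Counts assigned to 1459 protein-coding genes for olfactory (Olfr, 1135) and vomeronasal (Vmn, 324) receptors, which normally serve smell in sensory neurons of the nose, took an uneven share of the libraries. This share of the library was 0.901%, 0.596% and 0.391% in replicates 1 to 3 of 3 h, and 0.553%, 0.581% and 0.443% in those of 6 h. The 12 h replicates gave 0.745%, 0.178% and 0.508%, and the 24 h replicates 0.181%, 0.195% and 0.301%. The 24 h values lay below all values at 3 h and 6 h, and replicate 2 at 12 h lay with them. Over the 4 times the difference did not pass an exact permutation test (two-sided p = 0.109, means 0.629% ± 0.257, 0.526% ± 0.0728, 0.477% ± 0.285 and 0.226% ± 0.0656, SD, n = 3 each). Without replicate 2 at 12 h, the exact permutation p was 0.0215. At 24 h the geometric mean was 0.37 of that at 3 h (exact permutation p = 0.1, the smallest 3 against 3 libraries allow, adjusted p = 0.3 over 6 pairs of times). Of 10 markers of those sensory neurons, Cnga2 and Trpc2, signalling channels, stayed under 1 CPM in each vehicle library, Adcy3 and Ncam1 reached 5 CPM, and the list summed to 36.3 to 58 CPM.

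**Figure D1:**
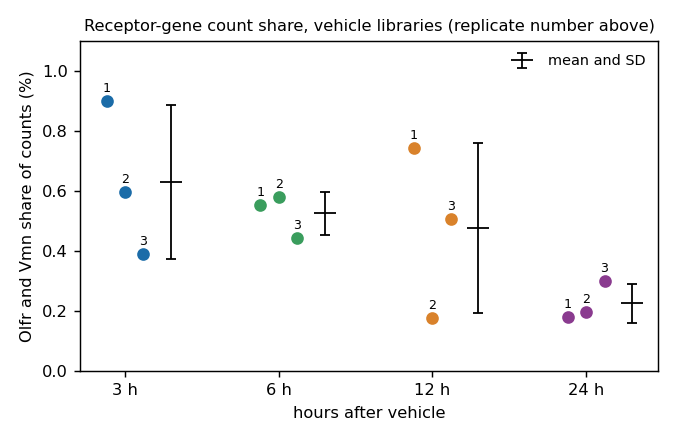
Share of library counts in Olfr and Vmn genes (percent, vertical axis) in each of the 12 vehicle libraries by hours of vehicle (horizontal axis), with the mean and SD of 3 libraries at each time. The 24 h libraries lie between 0.181% and 0.301%, and the lowest 12 h library is at 0.178%.

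Genes other than receptors also followed the share. For each gene the fitted slope gives its log2 change for each log2 unit of the share, with time held fixed. The median slope was 1.01 over the 265 receptor genes that reached 5 CPM, whose counts make up the share, and -0.01 over all genes tested. A slope above 0.5 was fitted for 6.73% of the 11047 other protein-coding genes and for 70.3% of the 1770 genes of other biotypes. The most abundant gene with a slope above 0.5 was Bhlhe41, a transcriptional repressor of the circadian clock. Its levels were 12700, 8380 and 6780 CPM at 3 h, 8540, 9290 and 6960 CPM at 6 h, 13800, 3690 and 11700 CPM at 12 h, and 4170, 4260 and 5610 CPM at 24 h. Bhlhe41 was highest and lowest within the same 12 h group, and its log2 level and the log2 share had a Pearson correlation of 0.96 over the 12 libraries, which share their library totals. The predicted gene Gm10800 (973 to 4020 CPM, slope 0.7) was next in abundance. Bhlhe41 and Gm10800 were chosen after their values were seen.

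For that reason each test of the hours carried the log2 share as a covariate, and a fold change here is at equal receptor share. The 24 h shares lay below all those of 3 h and 6 h, so between these times equal share is reached only through the fitted slope. There the covariate may also take up change with the hours, and the 2 cannot be fully told apart. Without 12 h replicate 2, 98 genes were called from 3 h to 24 h. A gene is called when its adjusted p from edgeR's quasi-likelihood test (Benjamini-Hochberg over 13082 genes) is under 0.05. Without the covariate, 3053 genes differed between 24 h and 3 h, 1479 of them lower, and 967 of these by at least 1.5-fold. With it, 621 genes differed, 499 of them in common. The 265 receptor genes gave 169 lower calls without the covariate and 0 with it, which follows from the covariate being their own summed share. The common biological coefficient of variation was 0.17 without the share and 0.0604 with it. In RNA from whole cultures, fewer cells of a type and less RNA per cell cannot be told apart.

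Over the 4 times, 1992 of 13082 genes (15.2%) had a course that was called. Among the 11245 genes that reached 5 CPM in all 4 groups, 1930 were called (17.2%). Among the 1837 genes kept only through the groups where they reached it, 62 were called (3.38%). Most calls lay between 6 h and 12 h: 1440 genes rose (11%) and 879 fell (6.72%), 130 and 31 of them by at least 1.5-fold. Between 3 h and 6 h no gene rose (0%) and 2 fell (0.0153%), with 970 genes at an unadjusted p under 0.05, and DESeq2 called 9. From 12 h to 24 h, 18 genes rose (0.138%) and 35 fell (0.268%). At an unadjusted p under 0.05 in the same tests there were 1676 genes at this step and 4290 from 6 h to 12 h. Few calls after 12 h thus do not mean that levels stood still. Over the whole span from 3 h to 24 h, 365 rose (2.79%) and 256 fell (1.96%), 70 and 20 by at least 1.5-fold. Of the 1992 genes with a called course, 1636 were also called between 6 h and 12 h. In counts simulated on these 13082 genes, the test of 12 h against 6 h recovered 82.1% of 67 genes changed 1.5-fold and 98.5% of 67 changed 2-fold. For 24 h against 3 h the recovery was 71.6% and 88.1%, so counts of calls do not compare these spans at equal power. Each simulated gene was drawn independently, and changed genes had counts in every library. Deviations shared across a library were therefore not simulated. The balance of rises and falls between 6 h and 12 h moved with the scaling, the gene filter and the libraries used. Here 62.1% of calls were rises, against 48.5% with DESeq2's size factors inside edgeR (1091 and 1158). With edgeR's filterByExpr, which keeps 28584 genes, 36.5% were rises (327 and 570, counted among the 13082 genes). A fit of all 24 libraries, with a mean for each group, gave 35.2% (705 and 1296). On leaving out 1 library, 25.9% to 64.1% of calls were rises. The count of calls between 6 h and 12 h was 1260 without 6 h replicate 3, 1288 without 12 h replicate 1 and 1290 without 12 h replicate 2. From 3 h to 24 h it was 86 without 3 h replicate 3 and 98 without 12 h replicate 2, against 621. Changes are described below mainly through genes whose calls held without any 1 library, with the range on leaving out 1 library for lists whose counts moved.

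The strongest courses belonged to glycolysis and the oxygen response. Of 16 tested glycolysis genes, 15 rose between 6 h and 12 h and 0 fell, with a median log2 change of 0.58 against 0.04 over all genes, and the courses of all 16 were called in each fit that left out 1 library. Of 16 tested genes of the hypoxia response, 13 rose and 0 fell, with a median of 0.68. Over all genes 11% rose and 6.72% fell, the shares to set beside each list count from 6 h to 12 h below. Bnip3, a mitophagy receptor and classical HIF target, had 36.4, 41.1 and 28.6 CPM at 3 h, 45.4, 60.8 and 54.7 CPM at 6 h, 232, 274 and 290 CPM at 12 h, and 131, 163 and 142 CPM at 24 h. All Bnip3 values at 12 h lay above all others, and those at 24 h lay between the 6 h and the 12 h values. Its log2 change was 2.30 ± 0.13 (SE) from 6 h to 12 h (adjusted p = 7.78e-08), and it was 2.03 ± 0.177 above 3 h at 24 h (adjusted p = 2.7e-05). Pfkl, the liver-type phosphofructokinase of glycolysis, went from 249, 277 and 254 CPM at 3 h and 282, 312 and 289 CPM at 6 h to 741, 806 and 820 CPM at 12 h and 605, 685 and 647 CPM at 24 h. Pfkl had the smallest course p of all genes (adjusted p = 5.03e-09), with a log2 change of 1.41 ± 0.0591 from 6 h to 12 h and no overlap between the 6 h and the 12 h libraries. These rises of Bnip3 and Pfkl held under each alternative and without any 1 of the 12 libraries.

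Pdk1, the kinase that keeps pyruvate out of the mitochondrial citrate cycle, rose from 64.6, 80.3 and 75.5 CPM at 6 h to 193, 199 and 214 CPM at 12 h (log2 change 1.46 ± 0.0699, adjusted p = 2.61e-08). Fam162a, a mitochondrial protein induced by low oxygen, rose from 74.7 ± 8.24 to 218 ± 23.2 CPM (SD, n = 3, log2 change 1.5). The second phosphofructokinase Pfkp went from a mean of 136 to 291 CPM, glucose phosphate isomerase Gpi1 from 251 to 528, triose phosphate isomerase Tpi1 from 727 to 1560, and aldolase Aldoa from 577 to 1190. Aldoc, the brain-type aldolase, went from 23.2 to 48.8 CPM, and Pgm1, which links glycogen to glycolysis, from 50.9 to 115 CPM. Each of these genes was also higher at 24 h than at 3 h, by 0.84 (Pgm1) to 1.30 (Pdk1) on the log2 scale, and each of those calls held without any 1 library. The late enzymes moved less, with Eno1 (enolase) at 0.51 and Gapdh and Pkm (pyruvate kinase) at 0.45 from 6 h to 12 h, while lactate dehydrogenase Ldha reached 0.87. Hk2, which traps glucose in the cell, was the member that was not called, at 0.27 (adjusted p = 0.0638).

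HIF binds the core letters ACGTG or GCGTG. Among members of the glycolysis and hypoxia lists, those without a promoter entry or on an excluded chromosome were passed over. For 4 of the rest with large rises from 6 h to 12 h, the 250 bases before the start site are shown (RefSeq, GRCm38.p6, 5′ to 3′ on the gene's strand, matches to either core on either strand in capitals). These are Bnip3 at chr7:138909507-138909756 (minus strand), Pdk1 at chr2:71872974-71873223 (plus), Pfkl at chr10:78009808-78010057 (minus) and P4ha2, a collagen prolyl hydroxylase subunit, at chr11:54100674-54100923 (plus).
Bnip3: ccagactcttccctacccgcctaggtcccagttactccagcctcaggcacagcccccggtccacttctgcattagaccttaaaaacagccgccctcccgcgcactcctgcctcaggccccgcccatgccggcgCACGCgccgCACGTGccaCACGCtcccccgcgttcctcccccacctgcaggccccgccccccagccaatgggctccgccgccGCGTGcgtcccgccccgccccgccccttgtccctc
Pdk1: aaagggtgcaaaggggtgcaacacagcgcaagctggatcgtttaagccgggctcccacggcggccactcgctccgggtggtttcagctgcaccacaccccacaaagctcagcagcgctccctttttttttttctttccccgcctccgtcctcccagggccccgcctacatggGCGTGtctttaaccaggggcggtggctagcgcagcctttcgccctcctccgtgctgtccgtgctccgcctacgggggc
Pfkl: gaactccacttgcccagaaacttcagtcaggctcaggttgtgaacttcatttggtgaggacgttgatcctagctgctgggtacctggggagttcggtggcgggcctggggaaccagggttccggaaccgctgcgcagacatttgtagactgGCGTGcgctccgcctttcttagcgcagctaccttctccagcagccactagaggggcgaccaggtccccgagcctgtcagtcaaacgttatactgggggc
P4ha2: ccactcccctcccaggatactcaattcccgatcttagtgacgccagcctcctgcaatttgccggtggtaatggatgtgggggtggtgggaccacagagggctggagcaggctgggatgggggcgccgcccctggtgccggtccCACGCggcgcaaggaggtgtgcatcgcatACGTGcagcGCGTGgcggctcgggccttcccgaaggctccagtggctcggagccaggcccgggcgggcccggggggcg
Bnip3 held 5 matches, 99 to 117 bases before the start for 4 of them and 35 bases for the other, and 2 of these overlap in CACGTG, which is also the E-box read by clock factors and MYC. P4ha2 held 3 matches at 107, 78 and 69 bases, Pdk1 held 1 at 78 bases and Pfkl held 1 at 99 bases before the start. Either core was present in 38.6% of all 27025 promoters of this length and in 56.4% of the 9383 promoters matched to genes tested here. It was present in 11 of 16 glycolysis promoters (68.8%), 12 of 14 hypoxia promoters (85.7%), 22 of 29 for both lists together (75.9%), and 16 of 24 ribosome biogenesis promoters (66.7%), a list whose genes fell. Among genes at least 1.5-fold higher at 12 h than at 6 h it was in 55 of 93 promoters (59.1%), close to the share among tested genes, and among those at least 1.5-fold lower in 6 of 20 (30.0%). ACGTG alone was in 14 of 29 promoters of the glycolysis and hypoxia lists together (48.3%), against 21.6% of promoters of tested genes. It was in 2 of 24 ribosome biogenesis promoters (8.33%) and 6 of 19 promoters of the ATF4 list (31.6%), whose genes mostly fell. Among the 1.5-fold rises ACGTG was in 29 of 93 promoters (31.2%), and among the falls in 3 of 20. Either core was in 13 of 19 ATF4 promoters (68.4%) and 14 of 16 clock promoters (87.5%). Such a match is a description of letters, not a site of binding.

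**Figure D2:**
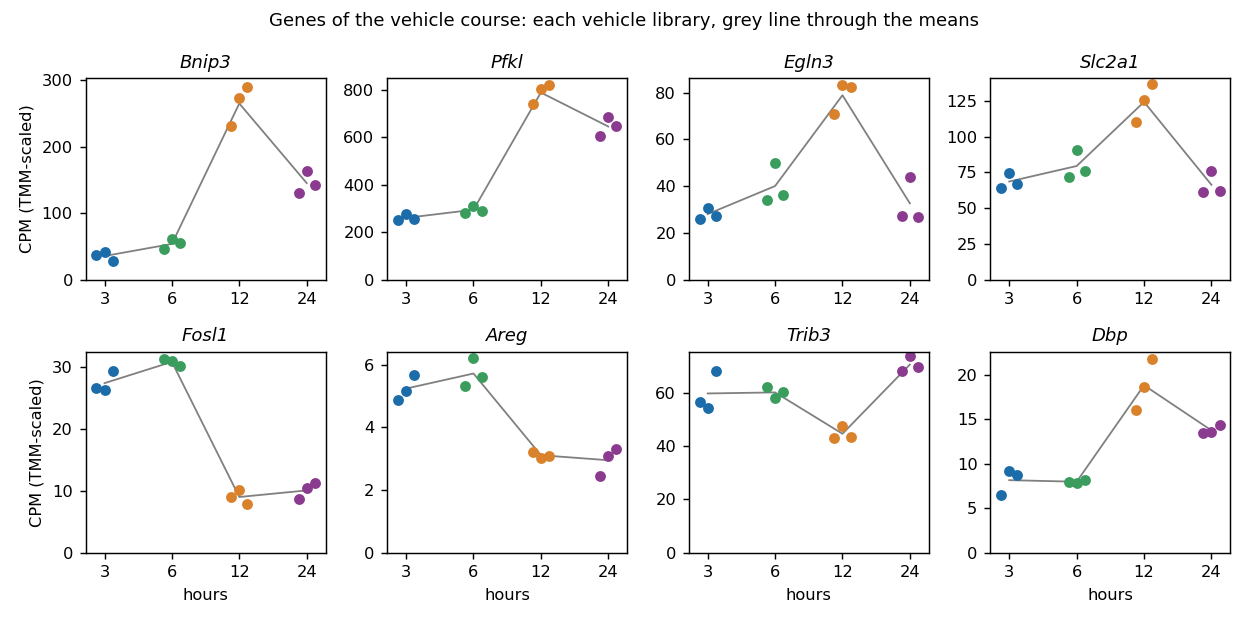
Level in CPM (vertical axis, its own scale in each panel) in each vehicle library by hours (horizontal axis) for Bnip3, Pfkl, Egln3, Slc2a1, Fosl1, Areg, Trib3 and Dbp, with a grey line through the means of 3 libraries. Bnip3, Pfkl, Egln3, Slc2a1 and Dbp are highest at 12 h, Fosl1 and Areg drop between 6 h and 12 h, and Trib3 is lowest at 12 h.

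Most hypoxia genes came down again by 24 h, some to about their 3 h level. Egln3, the oxygen-sensing prolyl hydroxylase that HIF itself induces, had 26, 30.8 and 27.2 CPM at 3 h, 34.1, 49.7 and 36.2 CPM at 6 h, 70.9, 83.2 and 82.5 CPM at 12 h and 27.1, 43.8 and 26.9 CPM at 24 h. The 12 h values of Egln3 stood above all others, and those at 24 h overlapped those at 3 h. Slc2a1, the basal glucose transporter, went from 71.6, 91 and 75.8 CPM at 6 h to 110, 126 and 137 CPM at 12 h and back to 61.2, 75.8 and 61.9 CPM at 24 h. The log2 change from 12 h to 24 h was -1.35 ± 0.184 for Egln3 (adjusted p = 0.00327) and -0.95 ± 0.116 for Slc2a1 (adjusted p = 0.00188). Ero1l, an oxidase of disulfide formation, went from a mean of 144 to 82.9 CPM (log2 change -0.82), and Ndrg1, a stress-induced differentiation gene, from 132 to 83.7 CPM (-0.74). In all 10 of 16 hypoxia genes and 6 of 16 glycolysis genes fell from 12 h to 24 h, against 0.268% of all genes. The list medians were -0.73 and -0.29 against -0.01 over all genes. Each of these falls from 12 h to 24 h named here, Bnip3 included, was lost when 12 h replicate 2, the 12 h library with the low receptor share, was left out: 8 genes were then called against 53, and 0 were shared. Those of Bnip3 and Egln3 were also lost without 24 h replicate 3. In CPM the 12 h and 24 h libraries of Egln3, Slc2a1, Ero1l, Ndrg1 and Bnip3 did not overlap.

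**Figure D3:**
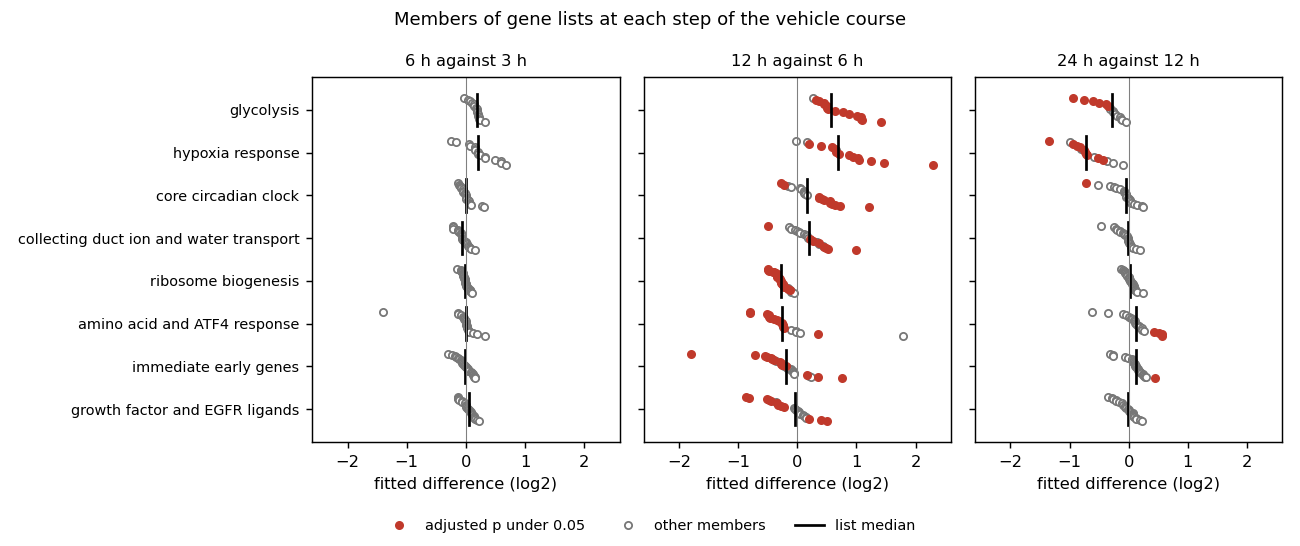
Fitted log2 change (horizontal axis) of each tested member of 8 gene lists (1 row of points for each list, 1 panel for each of the 3 steps between neighbouring times), with called members filled in red and the list median as a black bar. Members of the glycolysis and hypoxia lists sit mostly above 0 from 6 h to 12 h with medians of 0.58 and 0.68, and members of the ATF4 and ribosome biogenesis lists sit mostly below 0 with medians of -0.26 and -0.28.

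Genes of amino acid supply moved the other way, at a step where 6.72% of all genes fell. Of 21 tested genes of the amino acid and ATF4 response, 14 fell and 1, the lipoprotein receptor Vldlr, rose (log2 change 0.35) between 6 h and 12 h, and 13 to 15 fell on leaving out 1 library. Asns, asparagine synthetase, fell from 219, 208 and 219 CPM at 6 h to 147, 170 and 148 CPM at 12 h, with no overlap (log2 change -0.52 ± 0.0361, adjusted p = 5.31e-07). Shmt2, a mitochondrial serine hydroxymethyltransferase, fell from a mean of 304 to 224 CPM, and Psat1, of serine synthesis, from 370 to 287 CPM. Trib3, a pseudokinase target of ATF4, had 62, 57.9 and 60.4 CPM at 6 h, 43, 47.6 and 43.2 CPM at 12 h and 68, 73.8 and 69.8 CPM at 24 h. All 12 h values of Trib3 lay below all others, and those at 24 h overlapped the 3 h values (56.5, 54.4 and 68.2 CPM) at 1 library. Sesn2, an amino acid sensor that restrains mTORC1, followed the same course with means of 35.3, 26.2 and 40.5 CPM at 6, 12 and 24 h. From 12 h to 24 h the log2 change was 0.57 ± 0.074 for Trib3, 0.56 for Sesn2 and 0.52 for Chac1, a glutathione-degrading enzyme (adjusted p = 0.00242, 0.00388 and 0.00242). These 3 rises were lost without 12 h replicate 2 or without 24 h replicate 3. The falls of Asns, Shmt2, Psat1, Trib3 and Sesn2 between 6 h and 12 h held without any 1 library.

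Genes that build ribosomes were lower at 12 h. Of 29 tested ribosome biogenesis genes, 24 fell and 0 rose between 6 h and 12 h (median log2 change -0.28), against 6.72% of all genes that fell. On leaving out 1 library, 21 to 26 fell. Nop56, a core protein of small nucleolar particles, went from 387, 386 and 410 CPM at 6 h to 310, 336 and 301 CPM at 12 h, with no overlap (log2 change -0.36 ± 0.0375). Nop2, an rRNA methyltransferase, fell from a mean of 122 to 97.8 CPM, Nolc1, a nucleolar phosphoprotein, from 142 to 116 CPM, and Utp20, of the small subunit processome, from 63.6 to 50.3 CPM. Nop56, Nop2, Nolc1 and Utp20 were also lower at 24 h than at 3 h, by -0.28 to -0.46 on the log2 scale, and each of those calls was lost without 3 h replicate 3. Of 67 cytosolic ribosomal proteins, 13 fell and 0 rose between 6 h and 12 h, a count that ran from 1 to 46 on leaving out 1 library.

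Of 27 immediate early genes 12 fell and 3 rose between 6 h and 12 h, and of 24 growth factor and EGFR genes 9 fell and 3 rose, against 6.72% of all genes that fell and 11% that rose. Fewer were called over the whole span: 2 of 27 and 3 of 24 were called lower at 24 h than at 3 h, against 1.96% of all genes. The summed level of the immediate early genes was 2190 to 2260 CPM at 6 h, 1840 to 2050 CPM at 12 h and 2230 to 2360 CPM at 24 h. Fosl1, an AP-1 subunit kept up by ERK signalling, had 26.6, 26.3 and 29.3 CPM at 3 h, 31.3, 31 and 30.2 CPM at 6 h, 8.97, 10.2 and 7.86 CPM at 12 h, and 8.62, 10.4 and 11.2 CPM at 24 h. The Fosl1 levels formed an early and a late group with no overlap, and the log2 change from 6 h to 12 h was -1.80 ± 0.106 (adjusted p = 1.14e-07). Areg, an EGF receptor ligand, went from 5.31, 6.22 and 5.61 CPM at 6 h to 3.2, 3.03 and 3.1 CPM at 12 h; it was kept only through its 3 h and 6 h means (5.23 and 5.71 CPM), so its values are given as a description. Plaur, the urokinase receptor, went from a mean of 103 to 58.9 CPM, the ERK phosphatase Dusp6 from 102 to 72 CPM, and cyclin D1 (Ccnd1) from 57.8 to 42.8 CPM. Fosl1, Plaur and Ccnd1 also were called lower at 24 h than at 3 h without any 1 library, by -1.54, -0.52 and -0.77, though Ccnd1 was not called without both 3 h replicate 1 and 12 h replicate 2. The 3 immediate early genes that rose were Jun, Klf2 and Klf10, and the call of Klf10 was lost on leaving out any of 8 libraries. Jun, another AP-1 subunit, had a mean of 101 CPM at 6 h, 133 CPM at 12 h and 168 CPM at 24 h, a first step not called in TPM, while Egr1, with 194, 201, 189 and 222 CPM over the 4 times, had no called course (adjusted p = 0.201).

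Actb, cytoplasmic actin, went from 2850, 2930 and 2820 CPM at 3 h to 2040, 2170 and 2000 CPM at 12 h and 2150, 2130 and 2000 CPM at 24 h, with no overlap between 3 h and either late time (24 h against 3 h, log2 change -0.54 ± 0.0727, adjusted p = 0.00113). Ccn1, a matrix protein and target of YAP and serum response factor, had a mean of 423 CPM at 6 h, 262 CPM at 12 h and 374 CPM at 24 h. Of 15 tested genes of the YAP and actin list, 7 fell and 0 rose between 6 h and 12 h, among them Flna (filamin A), Tpm1 (tropomyosin) and Tagln2 (transgelin 2). The list of 26 junction and keratin genes split, with 8 higher and 3 lower, and 3 to 9 higher on leaving out 1 library. Cdh16, the kidney cadherin, went from a mean of 651 to 894 CPM, and Tjp3, a tight junction scaffold, from 109 to 149 CPM, while keratin Krt7 went from 1230 to 1020 CPM.

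Of 22 tested transport genes of the collecting duct, 8 rose and 1 fell between 6 h and 12 h, and 3 to 9 rose on leaving out 1 library. Hsd11b2, which shields the mineralocorticoid receptor from glucocorticoids, went from 12.8, 12.7 and 12.9 CPM at 6 h to 23.1, 24.9 and 28 CPM at 12 h and 24.4, 21.3 and 25.6 CPM at 24 h. Hsd11b2 thus had an early and a late level with no overlap (log2 change 0.99 ± 0.118, adjusted p = 9.05e-05). Rhcg, an ammonia transporter counted here among intercalated cell markers, went from 18.2, 18.5 and 16.4 CPM to 28.3, 30.9 and 30.2 CPM over the same step, and Fxyd2, a sodium pump subunit, from a mean of 30.2 to 44.3 CPM. Avpr2 went from 38.3, 40.8 and 37.5 CPM at 6 h to 48.1, 54.8 and 51.5 CPM at 12 h (log2 change 0.37 ± 0.0677, adjusted p = 0.00196), a call that was lost without a filter on low counts and in TPM. The member that fell was Sgk1, an aldosterone-induced kinase, from a mean of 12.6 to 8.66 CPM, a call lost without 12 h replicate 1. Aqp2, the vasopressin-regulated water channel, stayed low, at 6.76, 6.66 and 6.67 CPM at 3 h and 5.09, 4.16 and 6.5 CPM at 24 h, and its course was not called (adjusted p = 0.168). Scnn1a had means of 66.3, 70, 80.9 and 84.1 CPM, also not called (adjusted p = 0.0918), and Scnn1b stayed under 5 CPM. The 12 intercalated cell markers summed to 39.1 to 42.1 CPM at 6 h and 55.9 to 59.9 CPM at 12 h, with Foxi1 and Atp6v0d2 under 1 CPM throughout, and their part in these rises was not tested.

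The clock output genes Dbp and Tef rose between 6 h and 12 h. The circadian clock is a loop in which ARNTL and CLOCK drive Per, Cry, Rev-erb and the output factors Dbp and Tef. Of 21 tested clock genes, 10 rose and 2 (Arntl and Clock) fell between 6 h and 12 h, and 6 to 10 rose on leaving out 1 library. Dbp went from 7.91, 7.79 and 8.22 CPM at 6 h to 16, 18.6 and 21.8 CPM at 12 h and 13.4, 13.5 and 14.3 CPM at 24 h, with log2 change 1.21 ± 0.132 (adjusted p = 5.07e-05) and no overlap between the early and the late libraries. Tef went from 40.6, 36.9 and 40.8 CPM to 67.4, 63.2 and 64.1 CPM and stayed at 64.6, 62.9 and 61.2 CPM. Per2 rose over both late steps in its means, from 23.1 CPM at 6 h to 33.7 CPM at 12 h and 39.8 CPM at 24 h, of which only the first step was called. The rises of Per2 and Tef from 3 h to 24 h (log2 change 0.79 and 0.69) were called without any 1 library, and in TPM they were 0.53 and 0.56 (limma adjusted p = 0.0741 and 0.0615). Nr1d1 (Rev-erb alpha) had means of 5.66, 5.45, 5.94 and 5.56 CPM, not called (adjusted p = 0.833), and Arntl 15.5, 15.9, 12.7 and 13.1 CPM, with no called course (adjusted p = 0.155). From 6 h to 12 h Arntl was called lower (log2 change -0.28, adjusted p = 0.0475), a call lost on leaving out any of 5 libraries. Bhlhe41 was among the 10 that rose (log2 change 0.37, adjusted p = 0.00807), but its level followed the receptor share, and its call was lost without the covariate or without 6 h or 12 h replicate 3.

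Other lists are given by their counts between 6 h and 12 h, to be read against the 11% of all genes that rose and the 6.72% that fell. Of 25 cholesterol genes, 12 fell and 0 rose (8 to 15 fell on leaving out 1 library), for example Sqle (squalene epoxidase) from a mean of 205 to 167 CPM and Msmo1 from 283 to 225 CPM, while Hmgcs1 moved from 172 to 158 CPM and was back at 172 CPM at 24 h. Of 13 heat shock proteins, 8 fell and 0 rose (4 to 9 fell), for example Hspa1b from 430 to 335 CPM. At 24 h, 6 of the 13 were lower than at 3 h, against 1.96% of all genes, or 1 to 7 on leaving out 1 library. Of 15 NF-kB and cytokine genes, 6 fell and 0 rose (5 to 7 fell), for example Relb from 21.6 to 15.5 CPM. Of 12 FOXO and insulin-responsive genes, 7 rose and 0 fell (2 to 7 rose on leaving out 1 library). Of 29 autophagy and lysosome genes, 8 rose and 0 fell (4 to 9), led by the mitophagy receptor Bnip3l, from 264 to 440 CPM. Of 29 genes of G2/M and mitosis, 14 rose and 0 fell with a median of 0.12, a count of 1 under filterByExpr and 2 to 13 on leaving out 1 library, and Mki67, a proliferation marker, went from 155 to 195 CPM. Of 33 G1/S and replication genes, 2 rose and 3 fell (0 to 3 and 0 to 8 on leaving out 1 library), and of 20 ER chaperones, 4 rose and 3 fell (1 to 4 and 2 to 7). Of 37 nuclear respiratory chain genes, 3 fell and 0 rose (2 to 12 fell), and of 13 mitochondrially encoded genes, 2 fell and 0 rose (0 to 11 fell). Of 30 TGF-beta and matrix genes 2 rose and 5 fell (3 to 8 fell), of 21 interferon genes 2 rose and 0 fell, and of 19 NRF2 genes 1 rose and 2 fell (1 to 5 fell). Among 20 growth arrest and p53 genes 5 rose (1 to 6), among 15 fatty acid synthesis genes 3 rose and 2 fell, and among 14 of fatty acid oxidation 4 rose and 2 fell (0 to 4 rose). Steroid-responsive genes gave 2 rises and 4 falls of 13, Wnt and Notch targets 3 (0 to 4) and 1 of 12, histones 2 and 1 of 13, and metallothioneins and zinc transporters 0 of 4. No member of the 31 lists was called between 3 h and 6 h.

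Courses were sorted by the fitted steps of the 1992 called genes, a step counting when it reached 0.25 on the log2 scale. Monotonic courses were the most frequent of those with such a step: 598 rose (30.0%) and 341 fell (17.1%). A step under 0.25 against the main direction was allowed, so that 365 of the 598 were highest at 12 h and 225 at 24 h, and 200 of the 341 were lowest at 12 h and 134 at 24 h. In the rising genes the median step was -0.01 from 3 h to 6 h, 0.35 from 6 h to 12 h and -0.03 from 12 h to 24 h, so that the rise lay at the middle step. Peaked courses numbered 112 (5.62%), of which 108 were highest at 12 h, and troughs 64 (3.21%), of which 44 were lowest at 12 h. In 866 genes (43.5%) no step reached 0.25. In 24 peaked genes and 10 troughs the opposing steps were each called. Of the 53 calls from 12 h to 24 h, 0 were kept without 12 h replicate 2. Opposing steps that include this last step thus rest on that library. With the share left out of the fit, 491 of the 598 rising, 246 of the 341 falling and 86 of the 112 peaked genes kept their class. Of the 265 receptor genes 2 were called, Olfr620 as peaked (means of 62.1, 59.3, 69.8 and 27.5 CPM) and Olfr1385 as a trough (43.9, 35.3, 26.5 and 15.2 CPM), both classed at equal share and named after their values were seen.

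**Figure D4:**
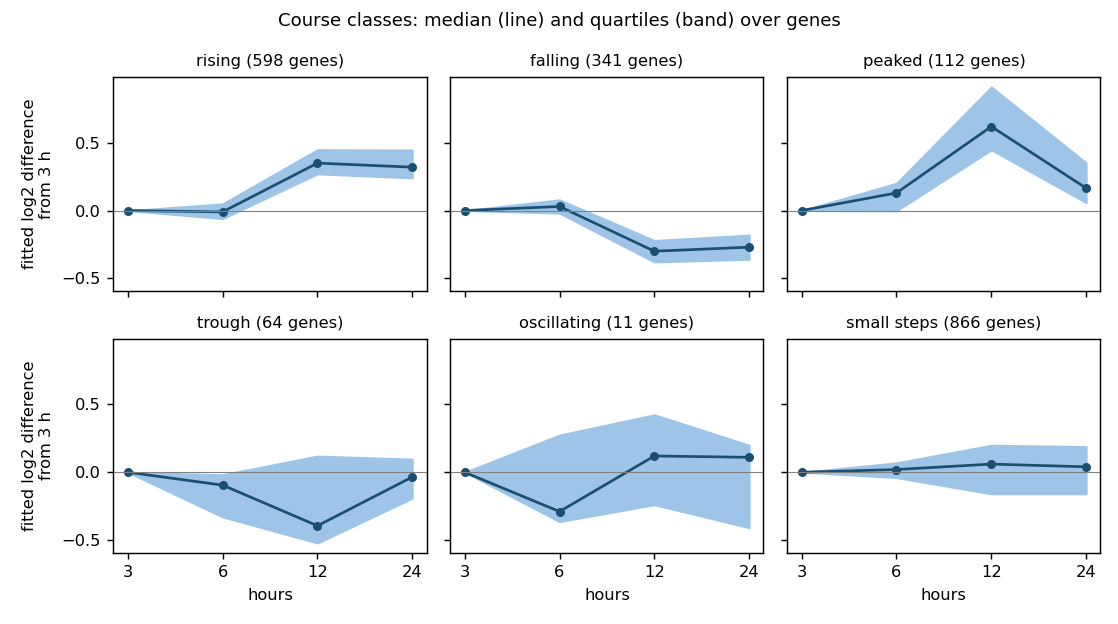
Fitted log2 difference from 3 h (vertical axis, at equal receptor share) by hours (horizontal axis) for the genes of each course class, as the median with the quartiles. Rising and falling classes step between 6 h and 12 h and are then level, and the peaked class comes down after 12 h with a median step of -0.38.

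Oscillating courses, with 2 changes of direction, numbered 11 (0.552%), and in 0 of them were the opposing steps each called. Mxi1, a MAX-binding repressor of MYC targets that also stands in the hypoxia list, had 26.8, 42.6 and 45.8 CPM at 3 h, 38.4, 33 and 26.3 CPM at 6 h, 78.7, 74.6 and 49.6 CPM at 12 h and 49.6, 48.3 and 47.8 CPM at 24 h. Its 3 h and 6 h values overlapped, and of its steps only the rise from 6 h to 12 h was called (log2 change 1.02 ± 0.186, adjusted p = 0.00203). Tspan33, a tetraspanin, had 39.2, 80.8 and 82.8 CPM at 3 h and 64, 48.3 and 41.6 CPM at 6 h, again with overlap, and its course was lost on leaving out any of 8 libraries. In the dDAVP libraries the log2 change from 6 h to 12 h was -0.12 for Mxi1 and -0.94 for Tspan33. Between 3 h and 6 h the 2 genes called lower were Kifc1, a mitotic kinesin, from 18, 15.6 and 17.2 CPM to 8.68, 8.01 and 7.31 CPM (log2 change -1.10 ± 0.111, adjusted p = 0.00121), and Elf2, an ETS factor, from 105, 107 and 108 CPM to 83.7, 80.9 and 79.7 CPM (-0.40 ± 0.0566, adjusted p = 0.0362). Neither gene overlapped between 3 h and 6 h. At this step 0 genes were called without the share covariate and 0 in the fit of all 24 libraries. On leaving out 1 library, 1 to 2 were called.

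The 12 dDAVP libraries share no library with the vehicle set and were fitted separately at the same hours. Between 6 h and 12 h, 519 genes rose (3.97%) and 700 fell (5.35%) in them, and from 3 h to 24 h 314 rose (2.4%) and 270 fell (2.06%). Of the 1440 genes that rose with vehicle, 356 rose there too (24.7% of the vehicle rises and 68.6% of the dDAVP rises), and of the 879 that fell, 355 fell (40.4% and 50.7%). Of the 130 vehicle rises of at least 1.5-fold, 66 were called and 99 had the same sign, and of the 31 such falls 23 were called and 30 had the same sign. Across genes, which are not independent replicates, the log2 changes of both sets had a Pearson correlation of 0.163 at this step and 0.52 from 3 h to 24 h. Of the 16 falls of at least 1.5-fold from 12 h to 24 h with vehicle, 15 were called in the dDAVP libraries. With dDAVP, 14 of 16 glycolysis genes rose from 6 h to 12 h (median 0.74) and 13 of 16 hypoxia genes (median 1.07), while 16 of 21 ATF4 genes and 16 of 29 ribosome biogenesis genes fell. Bnip3 changed by 2.81 with dDAVP against 2.30 with vehicle, and the difference was not called (vehicle minus dDAVP in a joint fit -0.28 ± 0.299, adjusted p = 0.864). A test of the difference over all genes called 8 at this step (0.0612%) and 72 from 3 h to 24 h (0.55%). Without the share covariate it called 197 and 37.

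**Figure D5:**
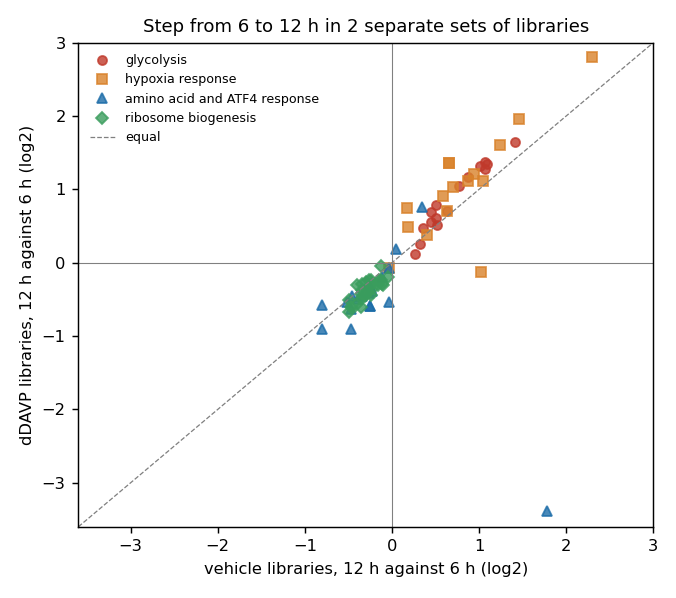
Log2 change from 6 h to 12 h in the vehicle libraries (horizontal axis) and in the dDAVP libraries (vertical axis) for tested members of the glycolysis, hypoxia, ATF4 and ribosome biogenesis lists, with a dashed line where both are equal. Glycolysis and hypoxia genes lie mostly in the upper right, with Bnip3 at 2.30 and 2.81, and the other lists mostly in the lower left. Cebpb of the ATF4 list, not called with vehicle, stands alone at 1.78 and -3.39.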

How the data were processed

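RNA was measured in 12 vehicle libraries of mpkCCD cells (3 at each of 4 times) and, for comparison, 12 dDAVP libraries. Per the labels' protocols, SMART-Seq HT cDNA was made from total RNA and sequenced as Nextera libraries. The authors deposited unnormalized estimated counts per Ensembl gene and a TPM table. The submitters' processing notes list Salmon 0.14.10 and the build GRCm38.p6 and give no further settings here. Of the count values, 43.6% held a fraction and were rounded.

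Genes with a mean of at least 5 CPM in a vehicle group were fitted with edgeR 4.0.16 (R 4.3.3) by its quasi-likelihood test: TMM (factors 0.975 to 1.02), 1 mean for each time and the log2 share of counts in Olfr and Vmn genes, with Benjamini-Hochberg adjustment over 13082 genes, threshold 0.05, and 7 residual degrees of freedom. CPM in the text are scaled by TMM, except for the 5 CPM minimum, the 1 CPM limit and the summed levels of cell type markers, which use library totals. CPM compare libraries within a gene, not genes. An interaction fit used all 24 libraries. Alternatives were DESeq2 1.42.0, limma 3.58.1 on log2(TPM + 1), other scalings and filters, no covariate, the replicate block and leaving out each library. Replicate libraries differed beyond counting noise (chi-square for each gene 3.48 to 61.5). In simulated counts, 0.0776% of 12882 unchanged genes were called at 12 h against 6 h. Genes were drawn independently there, without deviations shared across a library. Figures used matplotlib 3.10.9.

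Named genes were the 10 with the smallest course p, the 10 largest rises and 10 largest falls from 3 h to 24 h among called genes whose libraries did not overlap, the 5 with the widest course in each class, the 5 largest called rises and falls at each step, up to 4 members of each list with the smallest course p, and 25 chosen by name. Clone names and receptor genes were left out. List members named beside these (Eno1, Gapdh, Pkm, Ldha, Hk2, P4ha2, Vldlr, Klf10, Clock) were chosen after their values were seen. The members, lists and tests were chosen with earlier results of these data known.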

Additional observations from a re-analysis of the deposited data

Results flagged for a closer look

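For 6 of the named genes, the change with the hours differed between the vehicle and the dDAVP libraries in edgeR's quasi-likelihood test of the difference itself, on all 24 libraries. Between 3 h and 24 h, Aqp2 changed by 1.07 log2 units less with vehicle than with dDAVP (vehicle minus dDAVP -1.07 ± 0.182, adjusted p = 0.00385). Its mean was 6.7 CPM at 3 h and 5.25 CPM at 24 h with vehicle, against 122 ± 3.86 and 208 ± 10.8 CPM with dDAVP (SD, n = 3). Avpr2, the receptor for vasopressin, differed by -0.7 ± 0.107 (adjusted p = 0.00142), rising from 38.1 to 55.1 CPM with vehicle and from 26.3 to 59 CPM with dDAVP. Sult1c2, a sulfotransferase, differed by -1.01 ± 0.202 (adjusted p = 0.0171), with means at 3 h and 24 h of 6.72 and 8.27 CPM with vehicle and 5.99 and 14.1 CPM with dDAVP. Fos, the AP-1 subunit, differed by -0.73 ± 0.161 (adjusted p = 0.0372), at 29.4 and 22.7 CPM with vehicle and 26.5 and 32.1 CPM with dDAVP. Txnip, a glucose-responsive inhibitor of thioredoxin, differed by -0.49 ± 0.0841 (adjusted p = 0.00405), at 322 and 416 CPM with vehicle and 225 and 399 CPM with dDAVP. Between 6 h and 12 h, Max, the partner of MYC, differed by -0.63 ± 0.12 (adjusted p = 0.0462): it went from 45.9 to 31.3 CPM with vehicle and from 40.3 to 35.8 CPM with dDAVP. The difference is at equal receptor share and these means are not. Over all genes the test at this step called 8, 197 without the covariate, and 4 to 175 on leaving out 1 library. Called differences over all genes numbered 72 from 3 h to 24 h, and 34 to 361 on leaving out 1 library, the most without dDAVP 24 h replicate 1. No other result was singled out by a library far from its group, since groups of 3 were not tested for that.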

How the results depend on the processing

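Counts of called genes moved with several choices. Fits with filterByExpr or no filter were adjusted over their own genes, and their calls were counted only among the genes tested here. For the course over 4 times (1992 genes) they were 621 with filterByExpr, 712 with no filter, 929 with limma on log2(TPM + 1), 805 at a threshold of 0.01, and 1057 to 2038 on leaving out 1 library (1057 without 12 h replicate 1, 1151 without 6 h replicate 3, 1277 without 24 h replicate 3, 1326 without 3 h replicate 3). For 24 h against 3 h (621) they were 3053 without the share covariate, 93 with filterByExpr, 125 with no filter, 148 in TPM, 75 without both libraries that stand apart in receptor share (chosen after seeing the data), 156 at 0.01 and 86 to 578 on leaving out 1 library (86 without 3 h replicate 3, 98 without 12 h replicate 2, 149 without 24 h replicate 3, 350 without 24 h replicate 1, 383 without 3 h replicate 2, 393 without 6 h replicate 3). For 6 h against 3 h (2) they were 0 without the covariate, 0 on all 24 libraries, 1 with filterByExpr, 7 with no filter, 9 with DESeq2, 1 without both libraries, 1 at 0.01 and 1 to 2 on leaving out 1. For 12 h against 6 h (2319) they were 1256 without the covariate, 897 with filterByExpr, 723 with no filter, 708 in TPM, 1305 without both libraries, 983 at 0.01 and 1260 to 2384 on leaving out 1. For 24 h against 12 h (53) they were 20 with filterByExpr, 142 with DESeq2, 8 in TPM, 0 without both libraries, 24 at 0.01 and 7 to 82 on leaving out 1 (7 without 24 h replicate 3, 8 without 12 h replicate 2, 31 without 12 h replicate 3 or 24 h replicate 1, 35 without 6 h replicate 3, 82 without 12 h replicate 1).

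Vehicle against dDAVP differed in 72 genes from 3 h to 24 h (37 without the covariate, 24 at 0.01, 34 to 361 on leaving out 1) and in 8 from 6 h to 12 h (13 with DESeq2's size factors, 197 without the covariate, 5 at 0.01, 4 to 175 on leaving out 1). With steps of 0.5 the classes held 148 rising, 60 falling, 27 peaked, 7 trough, 2 oscillating and 1748 small-step genes. With steps of 0.1, 463 were peaked, 305 troughs, 66 oscillating and 9 small-step, and without the covariate 62 were peaked and 2 oscillating. The receptor share over the hours gave an exact permutation p of 0.0215 to 0.268 on leaving out 1 library, the lowest without 12 h replicate 2. Rises made up 58.8% of calls from 3 h to 24 h, 50.1% with DESeq2's size factors, 32.6% on all 24 libraries and 20.3% in TPM, where the median of all genes from 3 h to 6 h shifted by -0.12. Notch1 was 0.33 higher at 24 h than at 3 h and -0.13 in TPM (adjusted p = 0.808). The cause of these differences was not tested.

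Replicate numbers are shared by the groups, but the deviations of same-numbered libraries did not go together (correlations -0.344 to 0.194 over 18 pairs, share removed). With the replicate block, 1370 courses, 320 genes from 3 h to 24 h, 2 from 3 h to 6 h, 1917 from 6 h to 12 h and 37 from 12 h to 24 h were called, the share gave an exact permutation p of 0.151, and 56 and 9 genes differed between vehicle and dDAVP.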
